A study of Mus musculus with 8 samples.

Results

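Genes of the trans-synaptic adhesion system and of the inhibitory postsynaptic scaffold were followed in the ribosome-bound mRNA of parvalbumin-expressing (PV+) interneurons of the mouse primary somatosensory cortex (S1). They were chosen by name, as the rows of the deposited gene tables called Nrxn2, Nrxn3, Nlgn1, Nlgn2, Nlgn3, Gphn, Slitrk3 or Iqsec3, which gave 8 of the 45706 genes listed. All mice carried PvalbFlp/+;Neurod6Cre/+ and received an adeno-associated virus (AAV) in S1 at about postnatal day 1, whose flox-fdio cassette held HA-RPL10a and, after a T2A peptide, myc-hM3Dq. The virus encodes an epitope-tagged ribosomal protein, by which ribosomes and their mRNA can be pulled down, together with hM3Dq, a receptor that excites the cell once clozapine-N-oxide (CNO) binds it. Its expression was driven by the human synapsin promoter, was switched on by Flp in PV+ cells and was switched off by Cre in pyramidal cells, and the infection was sparse. Between postnatal days 42 and 70, mice were given 5 injections of CNO at 1 mg/kg or of vehicle over about 48 h. Each group held 4 samples, each pooled from 4 brains. Both groups carried the same virus, so that the comparison is of CNO with vehicle in mice that all received the receptor construct.

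Neurexins are presynaptic cell-surface proteins that bind partners across the synaptic cleft, among them the neuroligins of the postsynaptic side. Neuroligin 1 is known mainly from excitatory synapses, neuroligin 2 from inhibitory synapses, and neuroligin 3 from both. Gephyrin, the product of Gphn, is the scaffold that holds GABA(A) and glycine receptors under the inhibitory terminal. SLITRK3 is a postsynaptic adhesion protein of inhibitory synapses that binds the receptor phosphatase PTPδ, and IQSEC3 is an exchange factor for ARF GTPases that binds gephyrin. In a PV+ interneuron the neurexins therefore serve mainly the synapses the cell makes, and the other 6 genes mainly those it receives. The pulldown reports mRNA on ribosomes and says nothing of the amount of protein or of its place.

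The neurexin and neuroligin transcripts share a feature at the end of the coding sequence, which encodes the short C-terminal motif bound by PDZ-domain scaffold proteins. The last coding bases of these 5 genes, read from the GENCODE mouse release 21 annotation on GRCm38, are shown because they are what the members of each family have in common. Each runs 5′ to 3′ and ends with the stop codon, and capitals mark the last 4 codons before the stop.
Nrxn2: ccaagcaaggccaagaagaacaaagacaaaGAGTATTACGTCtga
Nrxn3: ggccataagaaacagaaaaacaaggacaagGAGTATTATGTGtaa
Nlgn1: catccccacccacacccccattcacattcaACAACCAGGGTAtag
Nlgn2: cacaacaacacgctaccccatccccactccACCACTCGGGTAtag
Nlgn3: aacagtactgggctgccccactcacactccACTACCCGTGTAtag
The neurexin pair matched at 10 of these last 12 bases and at 27 of the 42 bases before the stop. Each pair of neuroligins matched at 9 of the last 12 bases, and over the 42 bases at 27 for Nlgn1 and Nlgn2, 23 for Nlgn1 and Nlgn3 and 28 for Nlgn2 and Nlgn3. This end was held by 7 of the 8 annotated Nrxn2 transcripts with a stop codon, 5 of 7 of Nrxn3, 4 of 4 of Nlgn1, 2 of 2 of Nlgn2 and 3 of 3 of Nlgn3.

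Gene size differed widely among the 8 genes. Nrxn3 covers 1612.1 kb of chromosome 12 (GRCm38, 88722876 to 90334935, plus strand), and Nlgn1 906.2 kb of chromosome 3 (25426215 to 26332460, minus strand). Gphn lies on chromosome 12 (78226379 to 78684772, plus strand), and Nrxn2 on chromosome 19 (6418731 to 6544169, plus strand). Iqsec3 lies on chromosome 6 (121372933 to 121473678, minus strand), and Nlgn3 on chromosome X (101299168 to 101325963, plus strand). The shortest were Nlgn2 at 14.7 kb on chromosome 11 (69823122 to 69837784, minus strand) and Slitrk3 at 10.5 kb on chromosome 3 (73047265 to 73057803, minus strand). Genes on the opposite strand cover 9.16% of the exonic bases of Nlgn1, 6.44% of Nrxn2, 3.92% of Gphn and 3.48% of Nrxn3. Strand-specific counting was not stated in the sources used here, so reads from those stretches cannot be assigned to one strand. At most 0.25% of the 31-base words of these genes occur in the same orientation in transcripts of another gene, other than for Nlgn3 (41.8%). Nlgn3 shares exons with the annotated transcript Gm21986. Reverse complements were not searched, so these percentages leave out the overlaps with genes on the opposite strand.

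The libraries held 44064161 to 49413273 counts, so that 3 counts equal 0.0607 to 0.0681 CPM, counts scaled to a library of 1000000. All 8 genes lay far above that floor, with 345 counts in the lowest single value (Nlgn2) and 7297 in the highest (Nrxn3). Markers of PV+ interneurons (10 genes) summed to 2483 to 3895 TPM, transcripts scaled in the same way after correction for length, in the CNO samples and to 2844 to 3092 TPM in vehicle replicates 2 to 4, but to 1180 TPM in vehicle replicate 1. Pvalb itself was at 300.1 TPM in that sample, and at 819.7 to 1160.4 TPM in the other 7. Rpl10a and Chrm3, the mouse genes related to the parts carried by the virus, were also lowest there, at 300.6 and 34.2 TPM. Summed markers of other cell types overlapped between the groups, at 473 to 700 TPM with CNO and 607 to 794 TPM with vehicle for pyramidal cells (9 genes) and at 366 to 667 and 550 to 724 TPM for oligodendrocytes (5 genes). Astrocytes (5 genes) gave 154 to 238 and 183 to 246 TPM, microglia (5 genes) 37.3 to 59.5 and 47.2 to 70 TPM, blood vessel cells (4 genes) 21.6 to 62.2 and 32.4 to 48.2 TPM, and other interneurons (5 genes) 591 to 686 and 679 to 798 TPM, with CNO and vehicle in that order. Of the single markers, Lamp5 of the other interneurons did not overlap between groups (102.2 to 142.8 CPM with CNO, 143.3 to 180.0 CPM with vehicle, log2 fold change -0.37, SE 0.13, adjusted p = 0.817, edgeR). Fitted changes of P2ry12 of microglia (-0.38, SE 0.17) and of Gad2 of PV+ interneurons (0.52, SE 0.21) also had an unadjusted p under 0.05. Of all genes tested, 4.09% had such a p, and 1.63% were lower with CNO without overlap. All 10 PV+ markers had a fitted log2 fold change above 0, from 0.15 (Kcnc1, SE 0.23) to 0.63 (Slc32a1, SE 0.45). Those of the pyramidal cell markers ran from -0.26 (Rorb, SE 0.15) to 0.01 (Fezf2, SE 0.12), with Fezf2 alone above 0. None of these markers was at 0 in all samples, and the part of such cells in the values below was not tested. Since the samples are bulk pulldowns, a smaller share of PV+ cells and less mRNA per PV+ cell cannot be told apart. Fos, an immediate early gene that neuronal firing induces, stood at 32.2 to 69.5 CPM with CNO and at 11.3 to 15.8 CPM with vehicle (log2 fold change 1.93, SE 0.22, adjusted p = 0.052, edgeR).

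All 8 genes were detected in each sample, and their levels spanned a wide range. Levels are compared between genes as TPM. Nrxn3 was the most abundant at 85.2 ± 13.9 TPM (SD, n = 8), in the 87.0th percentile of the 17495 genes tested. Nlgn2 was the least abundant at 4.62 ± 0.803 TPM, in the 33.0th percentile. The other 6 genes lay between, with Slitrk3 at 36.3 ± 4.44 TPM, Nlgn3 at 29.6 ± 2.88 TPM, Gphn at 26.8 ± 1.47 TPM, Nrxn2 at 22.3 ± 2.12 TPM, Nlgn1 at 20.0 ± 3.09 TPM and Iqsec3 at 19.6 ± 1.66 TPM. The median gene tested had 13.4 TPM, so that Nlgn2 alone of the 8 genes lay below it. Nrxn3 exceeded Slitrk3 by 2.35-fold and Iqsec3 exceeded Nlgn2 by 4.24-fold, each in 8 of 8 samples and without overlap of their ranges. Gphn was above Nrxn2 in 8 of 8 samples, although their ranges touched. The other neighbours in this order overlapped, and Nlgn1 and Iqsec3, which differed by 1.02-fold, changed places in 3 of the 8 samples.

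**Figure D1:**
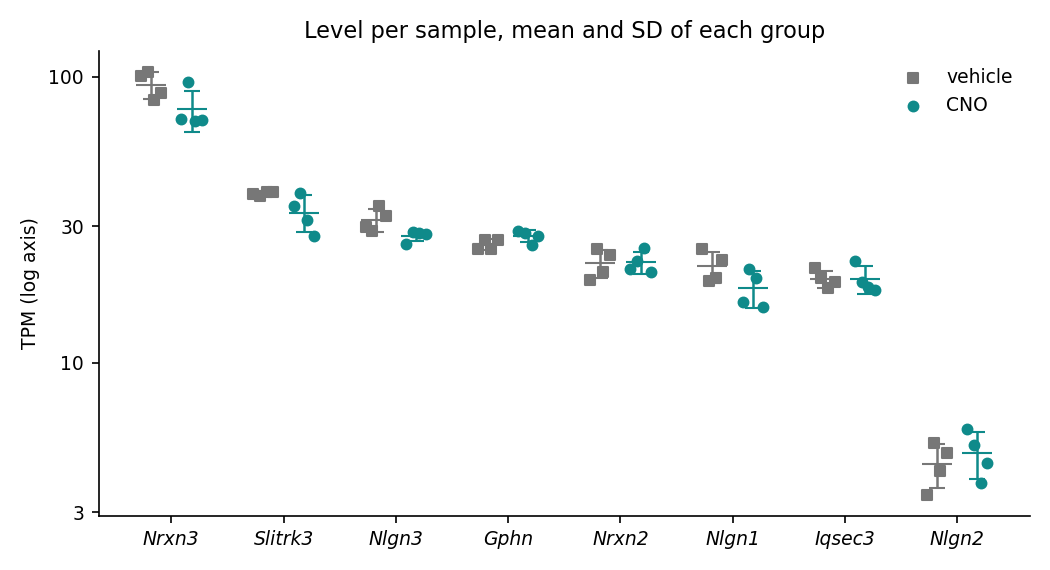
Level of each of the 8 genes in TPM (log axis) in each CNO and vehicle sample, with the mean and SD of each group (n = 4). Nrxn3 lies above and Nlgn2 below all other genes in every sample, and the 6 genes between them overlap with their neighbours.

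Of Nlgn1, Nlgn2 and Nlgn3, the rarest in the pulldown was Nlgn2, whose product is known from inhibitory synapses. Of the summed TPM of Nlgn1, Nlgn2 and Nlgn3, Nlgn3 took 54.7% ± 2.86 (SD, n = 8), Nlgn1 36.7% ± 3.43 and Nlgn2 8.62% ± 1.95. Nlgn2 took 12.2%, 9.37%, 7.33% and 9.25% in CNO replicates 1 to 4 and 5.96%, 9.79%, 7.05% and 8.03% in vehicle replicates 1 to 4. The highest Nlgn2 share belonged to CNO replicate 1 and the lowest to vehicle replicate 1, and the remaining 6 samples overlapped. Vehicle replicate 1, the sample with the least PV marker mRNA, also had the highest Nlgn1 share, at 43.0%.

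CNO was then compared with vehicle to ask whether these genes changed with 48 h of increased PV+ interneuron activity. None of the 8 genes passed the test, either at an adjusted p under 0.05, where 0.0% of the 17495 genes tested passed (smallest adjusted p = 0.052, edgeR), or at an unadjusted p under 0.05, where 4.09% passed. Fitted log2 fold changes were above 0 for 4 genes and below 0 for 4, with a median of 0.00, beside 50.4% above 0 and a median of 0.001 for all genes tested. The changes ran from -0.21 (Nlgn1) to 0.16 (Nlgn2 and Gphn), and every 95% interval lay between 0.734-fold (Nlgn1) and 1.43-fold (Nlgn2). The median SE over all genes tested was 0.157 on the log2 scale, and the SE of the 8 genes was between 0.08 and 0.16. In CPM, groups did not overlap for 2 of the 8 genes, Nrxn3 (lower with CNO) and Gphn (higher with CNO). Of all genes tested, 2.42% did not overlap, with 0.789% higher and 1.63% lower with CNO. An alternative likelihood ratio test used the robust dispersion that the study names. There 15 of all genes tested and 0 of the 8 genes had an adjusted p under 0.05.

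**Figure D2:**
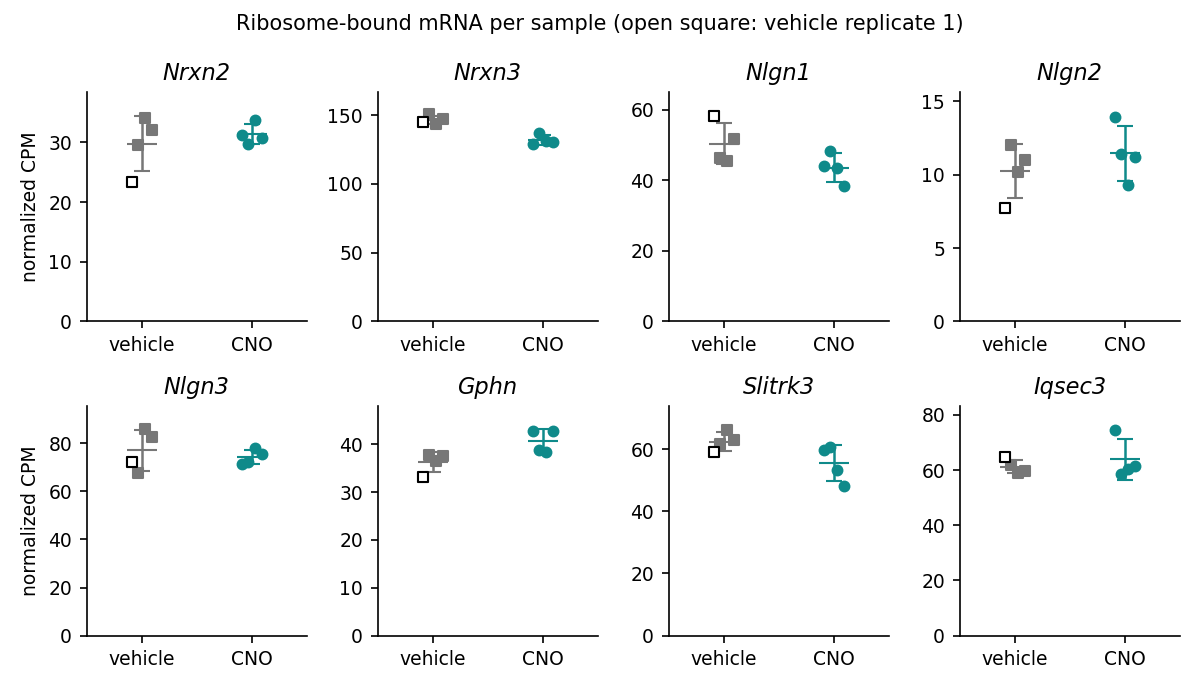
Normalized CPM of each gene in each vehicle and CNO sample (n = 4 per group, lines for mean and SD, y axes from 0), with vehicle replicate 1 as an open square. Nrxn3 lies lower and Gphn higher in all 4 CNO samples than in all 4 vehicle samples, and the groups overlap for the other 6 genes.

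Both neurexins were measured in every sample, and neither passed the test. Nrxn3, the largest of the 8 genes, was at 129.0, 136.9, 131.1 and 130.2 CPM in CNO replicates 1 to 4 and at 145.0, 150.5, 143.5 and 147.2 CPM in vehicle replicates 1 to 4. Every CNO sample was below every vehicle sample. The means were 131.8 ± 3.49 and 146.6 ± 3.03 CPM (SD, n = 4 each), a log2 fold change of -0.15 (SE 0.08, 95% interval -0.33 to 0.03) that did not pass edgeR's quasi-likelihood test (adjusted p = 0.817). In TPM the Nrxn3 groups overlapped, at 69.9 to 95.6 with CNO and 82.6 to 103.8 with vehicle. Nrxn2 was at 31.2, 29.7, 33.7 and 30.8 CPM with CNO and at 23.4, 29.6, 34.1 and 32.0 CPM with vehicle. All 4 CNO samples of Nrxn2 lay inside the vehicle range, whose lowest value came from vehicle replicate 1. Its log2 fold change was 0.07 (SE 0.12, adjusted p = 0.871, edgeR), and -0.03 without that sample.

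Nlgn1 and Nlgn2, the neuroligins known from excitatory and from inhibitory synapses, had fitted changes of opposite sign, and neither passed the test. Nlgn1 was at 44.1, 48.4, 43.4 and 38.4 CPM with CNO and at 58.1, 46.3, 45.5 and 51.7 CPM with vehicle. In 3 CNO samples it was below the lowest vehicle sample, and the fourth lay among the vehicle samples. The log2 fold change was -0.21 (SE 0.11, 95% interval -0.45 to 0.03, adjusted p = 0.817, edgeR). Nlgn2 was at 13.9, 11.4, 9.32 and 11.2 CPM with CNO and at 7.71, 12, 10.2 and 11.0 CPM with vehicle. CNO replicate 1 was highest and vehicle replicate 1 lowest, and the others overlapped (log2 fold change 0.16, SE 0.16, 95% interval -0.19 to 0.52, adjusted p = 0.82, edgeR). Vehicle replicate 1, the sample with the least PV marker mRNA, was thus the highest of 8 for Nlgn1 and the lowest of 8 for Nlgn2. Without it the log2 fold changes were -0.14 for Nlgn1 and 0.04 for Nlgn2.

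Nlgn3, the most abundant neuroligin, was at 71.4, 72.2, 77.9 and 75.3 CPM with CNO and at 72.1, 67.7, 85.7 and 82.4 CPM with vehicle. The CNO samples fell within the vehicle range, and the log2 fold change was -0.05 (SE 0.10, 95% interval -0.27 to 0.16, adjusted p = 0.886, edgeR). On the TPM scale the same gene did not overlap between groups, at 26.0 to 28.6 with CNO and 28.8 to 35.2 with vehicle, beside 3.17% of all genes tested, of which 2.54% were lower and 0.629% higher with CNO. Tested by limma on log2(TPM + 1), its difference was -0.18 (adjusted p = 0.749).

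The gene of the inhibitory scaffold itself lay slightly higher in each CNO sample on the CPM scale. Gphn was at 42.8, 38.8, 38.3 and 42.7 CPM with CNO and at 33.2, 37.8, 36.5 and 37.6 CPM with vehicle. The groups did not overlap, but the gap between the lowest CNO and the highest vehicle sample was small beside the spread within each group. The means were 40.6 ± 2.41 and 36.3 ± 2.12 CPM (SD, n = 4 each), a log2 fold change of 0.16 (SE 0.09, 95% interval -0.02 to 0.35) that did not pass the test (adjusted p = 0.817, edgeR). In TPM the Gphn groups overlapped, with 25.8 in CNO replicate 3 and 26.9 in vehicle replicates 2 and 4. Without vehicle replicate 1, the lowest of the 8 samples, its log2 fold change was 0.12.

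SLITRK3 and IQSEC3 also serve inhibitory synapses, and their genes had fitted changes of opposite sign. Slitrk3 was at 59.8, 60.7, 53.2 and 48.3 CPM with CNO and at 59.0, 61.6, 66.2 and 62.9 CPM with vehicle. CNO replicates 3 and 4 lay below all vehicle samples, and CNO replicates 1 and 2 among them (log2 fold change -0.17, SE 0.10, 95% interval -0.38 to 0.04, adjusted p = 0.817, edgeR). Iqsec3 was at 74.7, 58.7, 60.6 and 61.5 CPM with CNO and at 64.7, 61.7, 59.1 and 59.8 CPM with vehicle. One CNO sample stood above the rest, and the other 3 lay around the vehicle values. The log2 fold change of Iqsec3 was 0.06 (SE 0.10, 95% interval -0.16 to 0.27, adjusted p = 0.878, edgeR), and -0.03 without CNO replicate 1.

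**Figure D3:**
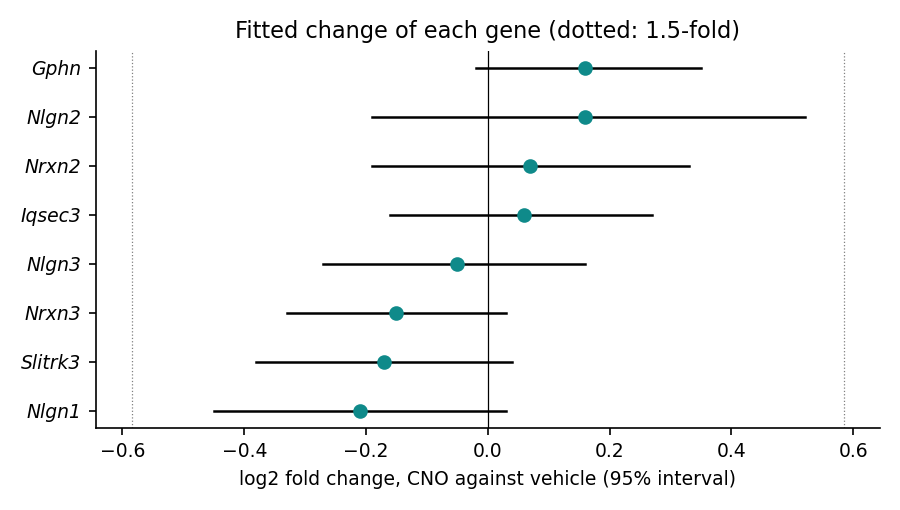
Fitted log2 fold change of CNO against vehicle for each gene with its 95% interval (edgeR, n = 4 per group), with dotted lines at a 1.5-fold change. The intervals of all 8 genes cross 0 and stay inside the dotted lines.

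Ratios between genes with related roles were compared within samples, which removes the scaling of the library. The ratio of Nlgn2 to Nlgn1 in TPM was 0.36, 0.242, 0.193 and 0.284 with CNO and 0.139, 0.271, 0.21 and 0.212 with vehicle. CNO replicates 1 and 4 lay above all vehicle samples and CNO replicate 3 below all but vehicle replicate 1, with a difference of 0.38 on the log2 scale (p = 0.257, two-sided exact permutation test). It was 0.20 without vehicle replicate 1 and 0.23 without CNO replicate 1. The ratio of Nrxn3 to Nrxn2 was 3.34, 4.23, 2.79 and 3.42 with CNO and 5.16, 4.16, 3.98 and 3.69 with vehicle. It was below the lowest vehicle sample in 3 of 4 CNO samples, with a difference of -0.31 (exact permutation p = 0.114). The ratio of Nlgn2 to Gphn differed by 0.03, that of Nlgn2 to Nlgn3 by 0.31 (exact permutation p = 0.229) and that of Iqsec3 to Gphn by -0.10 (exact permutation p = 0.286). Over the 5 ratios the smallest adjusted p was 0.357 (exact permutation, Benjamini-Hochberg), and the smallest p that 4 against 4 samples allow is 0.0286. None of the 5 ratios passed.

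Counts and TPM of one gene differ by the mean length of its transcripts, which the authors' quantification estimated in each sample. The length implied by the ratio of counts to TPM was therefore read as a measure of which transcripts were used, on a scale set by 793 genes with a single transcript, whose median coefficient of variation was 0.12%. Gphn did not move on this scale (3297 to 3299 bases, coefficient of variation 0.022%), and its length lay near its shorter coding transcript of 3300 bases. The authors quantified with another annotation (iGenomes) than the one used here. A gene with a single transcript in that annotation would keep one length whatever its transcript use, so for Gphn these cannot be told apart. Slitrk3 (0.457%), Iqsec3 (1.05%) and Nlgn2 (1.66%) varied little. The neurexins and the other neuroligins, whose alternative splicing and promoter use are known from many studies, varied most, with coefficients of 8.49% for Nrxn2, 7.59% for Nrxn3, 6.55% for Nlgn1 and 4.53% for Nlgn3. For Nrxn3 the implied lengths were 4039, 3447, 4163 and 3954 bases with CNO and 3591, 3394, 3905 and 3969 bases with vehicle. For Nrxn2 they were 3260, 3169, 2984 and 3200 bases with CNO and 2990, 2773, 3691 and 3185 bases with vehicle. Groups overlapped for both neurexins, and likewise for Nlgn1 (4892 to 5997 with CNO and 5160 to 5782 with vehicle) and Nlgn3 (5762 to 6101 and 5476 to 6049). The length is an estimate over overlapping transcripts, so its spread holds the error of that estimate as well as changes in transcript use.

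**Figure D4:**
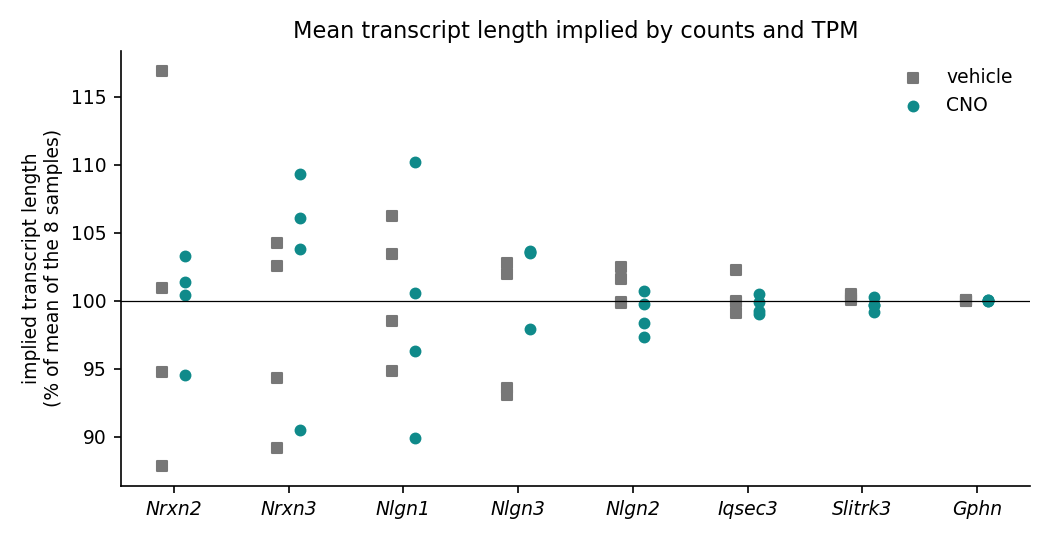
Mean transcript length implied by counts and TPM in each CNO and vehicle sample, as a percentage of the mean of the 8 samples for that gene. Gphn, Slitrk3, Iqsec3 and Nlgn2 stay close to 100%, while Nrxn2, Nrxn3, Nlgn1 and Nlgn3 spread in both groups.

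Nlgn3 cannot be read apart from Gm21986, an annotated processed transcript on the same strand (chromosome X, 101295839 to 101321348, GRCm38) that was singled out after its values were seen. Of its 11 exons, 4 lie upstream of Nlgn3, where Med12 is annotated, and 7 lie within Nlgn3 exons, so that 68.8% of its 5560 bases are Nlgn3 exon and 41.2% of the exonic bases of Nlgn3 lie in both. Gm21986 was at 4.64, 4.44, 4.67 and 3.43 CPM with CNO and at 1.95, 1.49, 2.39 and 1.96 CPM with vehicle. Every CNO sample was above every vehicle sample, as for 0.789% of all genes tested. Its log2 fold change was 1.14 (SE 0.19), which did not pass adjustment in edgeR's quasi-likelihood test (adjusted p = 0.239) and did so in the likelihood ratio test with robust dispersion (adjusted p = 0.000568) and in DESeq2 (adjusted p = 1.03e-05). Leaving out 1 sample at a time gave 1.02 to 1.25 in edgeR, and limma on log2(TPM + 1) gave 0.58. Apart from that likelihood ratio test and DESeq2, no alternative passed for Gm21986 (adjusted p of 0.187 or more, edgeR or limma). Of the counts given to both genes, Gm21986 took 6.1%, 5.79%, 5.65% and 4.35% with CNO and 2.63%, 2.16%, 2.71% and 2.32% with vehicle. When both were summed, the log2 fold change was -0.01 (SE 0.10, adjusted p = 0.988, edgeR), so their summed count did not differ detectably. Med12, which overlaps Gm21986 exons, was not part of this sum. How far the estimated counts split shared reads between Nlgn3, Gm21986 and Med12 was not tested.

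**Figure D5:**
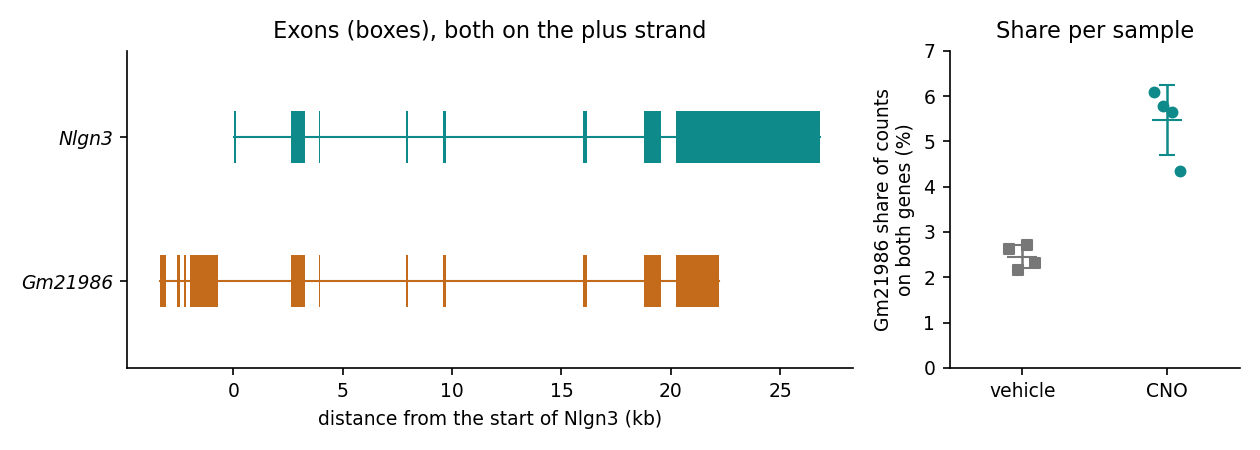
Exons of Nlgn3 and Gm21986 by distance from the start of Nlgn3 in kb (left), and the percentage of the counts on both genes that was given to Gm21986 in each vehicle and CNO sample, with the mean and SD (right). The 4 CNO samples lie between 4.35% and 6.1%, above all 4 vehicle samples, which lie between 2.16% and 2.71%.

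Partners of the neurexins were read from a list of 33 genes that includes all 5 neurexins and neuroligins above and gave 32 genes tested. Their fitted changes were above 0 for 11 and below 0 for 21 (median -0.06), and 0 were higher and 2 lower at an unadjusted p under 0.05, where 1.44% and 2.65% of all genes tested were. No list gene passed the adjusted test here or in the lists below (adjusted p of 0.817 or more, edgeR). The lower pair was C1ql3, a secreted C1q-like protein, at 7.55 to 8.80 CPM with CNO and 9.20 to 11.4 CPM with vehicle (log2 fold change -0.30, SE 0.11), and Lrrtm4, a postsynaptic neurexin ligand (-0.29, SE 0.12). Both were highest in vehicle replicate 1. Fitted changes at the upper end of the list were 0.37 for the adaptor Apba1 (SE 0.18) and 0.28 for the neurexophilin Nxph1 (SE 0.24). Apba1 and Nxph1 were lowest in vehicle replicate 1. At the lower end was -0.46 for C1ql2 (SE 0.39), at only 0.494 TPM. The most abundant partners were the calsyntenins Clstn1 and Clstn3 and the scaffold subunit Lin7b, at 431.9, 218.4 and 220.3 TPM, with log2 fold changes of -0.03, 0.18 and 0.07.

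The list of LAR-type receptor phosphatases and SLITRKs, to which SLITRK3 and its ligand belong, held 17 genes, of which 16 were tested. Fitted changes were above 0 for 5 and below 0 for 11 (median -0.07). At an unadjusted p under 0.05, 1 gene was higher and 0 were lower, beside 1.44% and 2.65% of all genes tested. That one was Ppfia4, a liprin that binds these phosphatases (log2 fold change 0.39, SE 0.15), at 28.6 to 43.8 CPM with CNO and 21.5 to 30.8 CPM with vehicle. Ptprd, which encodes the SLITRK3 ligand PTPδ, was at 150.2 TPM with a log2 fold change of -0.22 (SE 0.15), and its relative Ptprs, at 161.9 TPM, of 0.00. Slitrk2 gave -0.23 (SE 0.11), Il1rap -0.26 (SE 0.23), Lrrc4b 0.07 (SE 0.09) and Slitrk5, at 37.8 TPM, 0.00 (SE 0.09). Vehicle replicate 1 was the lowest sample for Ppfia4 and the highest for Ptprd, Slitrk2 and Il1rap. Ntrk3, a receptor tyrosine kinase that also binds these phosphatases, was the 1 gene of the 16 whose groups did not overlap (lower with CNO, -0.15, SE 0.08), beside 1.63% of all genes tested in that direction.

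Inhibitory postsynaptic genes were taken from a list of 23 entries, of which 22 were matched and tested, Gphn, Nlgn2, Slitrk3 and Iqsec3 among them. Fitted changes were above 0 for 15 and below 0 for 7 (median 0.05). At an unadjusted p under 0.05, 0 were higher or lower, beside 4.09% of all genes tested. Fam196a, an inhibitory synaptic protein gene, had the largest fitted change of the list (0.51, SE 0.23). Gabarap followed (0.24, SE 0.19), whose product binds gephyrin and GABA(A) receptors. Of the 8 samples, vehicle replicate 1 was the lowest for Fam196a (6.37 CPM) and for Gabarap (36.5 CPM). At the other end stood Slitrk3, given above, and the dystrophin gene Dmd (-0.17, SE 0.16), which was highest in vehicle replicate 1. The dynein light chains that bind gephyrin were the most abundant, with Dynll1 at 381.1 TPM (log2 fold change -0.05) and Dynll2 at 142.2 TPM (0.03), beside Gabarap at 137.6 TPM. Gphn was the 1 gene of the 22 whose groups did not overlap, beside 0.789% of all genes tested that were higher with CNO without overlap.

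For contrast, 17 excitatory postsynaptic genes were read in the same fit. Fitted changes were above 0 for 7 and below 0 for 10 (median -0.05). At an unadjusted p under 0.05, 1 was higher and 2 were lower, beside 1.44% and 2.65% of all genes tested. Homer3 was at 1.82 to 2.40 CPM with CNO and 1.27 to 1.72 CPM with vehicle (log2 fold change 0.54, SE 0.19). Homer2 gave -0.28 (SE 0.10) and the PSD-95-binding scaffold gene Dlgap2 -0.27 (SE 0.11), and both were highest in vehicle replicate 1. Groups did not overlap for 4 of the 17, Homer3 and Iqsec2 (higher with CNO) and Dlgap2 and Dlgap1 (lower), beside 0.789% higher and 1.63% lower of all genes tested. Iqsec2, the relative of Iqsec3 known from excitatory synapses, gave 0.23 (SE 0.13), Dlgap1, at 568.2 TPM, -0.18 (SE 0.11), and Dlgap4 -0.11 (SE 0.10). Vehicle replicate 1 was the lowest sample for Iqsec2 and the highest for Dlgap1 and Dlgap4.

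Across the 8 samples the genes did not all vary together. Gphn and Nlgn2, scaffold and adhesion protein of the same synapse, were the pair most alike in log2 CPM (Pearson r = 0.805, n = 8), and Gphn and Nlgn1 the most opposed (r = -0.828). Nrxn3 was nearest to Slitrk3 (r = 0.666), Nlgn1 to Nrxn3 (r = 0.653), Nrxn2 and Nlgn3 to each other (r = 0.568), and Iqsec3 to Nlgn2 (r = 0.361). Of 15173 genes with a mean above 1 TPM, the most alike were Ly6h for Nrxn2 (r = 0.974), Kcnk2 for Nrxn3 (r = 0.951), Plekha2 for Nlgn1 (r = 0.987), Pum2 for Nlgn2 (r = 0.965), Armcx4 for Nlgn3 (r = 0.961), Ccdc65 for Gphn (r = 0.981), Gm15665 for Slitrk3 (r = 0.979) and Yy1 for Iqsec3 (r = 0.975). The samples share their treatment groups and the low PV marker level of vehicle replicate 1, the most alike gene was picked from 15173 over only 8 points, and these correlations are given as a description.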

How the data were processed

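Ribosome-bound mRNA was pulled down from infected S1 with anti-HA beads, made into libraries with the SMARTer Ultra Low RNA kit and sequenced paired-end, in 4 CNO and 4 vehicle samples that are separate pools. Per the study's methods and the submitters' processing notes, reads went through a Nextflow RNA-seq pipeline, in which they were trimmed with Trim Galore, aligned with STAR to GRCm38 and quantified with Salmon and tximport. The authors deposited estimated counts per gene, not normalized, of which 33.7% of the values above 0 were not whole, and TPM per gene. Versions of Trim Galore, STAR, Salmon and tximport were not given in the sources used here.

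Estimated counts were rounded and tested with edgeR 4.0.16 in R 4.3.3 (TMM, quasi-likelihood test, Benjamini-Hochberg over all 17495 genes tested). The study's filter was kept, which drops a gene once 4 or more samples hold under 10 reads, and all 8 genes passed. The robust dispersion that the study names was used only in an alternative. CPM are TMM-normalized. For TPM ratios the test was a two-sided permutation of the samples, exact over its 70 assignments. The gene-wise tests, though not the permutation, were checked on simulated data. Positions, transcripts and coding ends came from GENCODE release 21 on GRCm38, which held 45143 of the 45706 gene identifiers. No protein sequence was used here.

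The 8 genes and all lists were chosen with earlier results of these data known. Named from each list were genes at an unadjusted p under 0.05, the 2 largest fitted changes in each direction and the 3 highest mean TPM, besides cell type markers, Fos, Rpl10a and Chrm3. Ntrk3, Gm21986, the single markers named and the gene size comparisons were added after values were seen, and a few list genes are counted but not named. Alternatives were the likelihood ratio test with robust dispersion, DESeq2 1.42.0, limma 3.58.1 on log2(TPM + 1) and log2(TPM + 0.1), other size factors and filters, a replicate block, 1 surrogate variable from sva 3.50.0, the PV against pyramidal marker index as a covariate, each sample left out, and, chosen after seeing the data, an offset for gene length and the sum of Nlgn3 and Gm21986. Plots were drawn with matplotlib 3.10.9.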

Additional observations from a re-analysis of the deposited data

Results flagged for a closer look

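Each of 42 groups of 4 samples was examined for a sample far from the other 3, of which chance is expected to mark about 2.1, and 2 were found. The log2 ratio of Iqsec3 to Gphn was -0.23 in vehicle replicate 1 and -0.48 to -0.45 in the other vehicle samples, a gap of 0.857 of the group's range. This is the sample with the least PV marker mRNA. The implied transcript length of Nlgn3 was 5762 bases in CNO replicate 4 and 6090 to 6101 bases in the other CNO samples, a gap of 0.968 of the range. CNO replicate 4 also had the lowest share of Gm21986 among the CNO samples, at 4.35%.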

How the results depend on the processing

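No adjusted p of the 8 genes came under 0.05 in any alternative (lowest 0.472). Nrxn3 ranged from -0.29 to -0.14 on the log2 scale, Nlgn1 from -0.26 to -0.09, Nlgn2 from 0.04 to 0.25, Gphn from 0.09 to 0.19 and Slitrk3 from -0.24 to -0.11. With the marker index they were -0.14, -0.09, 0.04, 0.10 and -0.16, in that order. Nlgn1 was also -0.09 with 1 surrogate variable, and Nlgn2 was also 0.04 without vehicle replicate 1. The changes nearest 0 turned sign: Nrxn2 was -0.04 with 1 surrogate variable, -0.04 with the marker index and -0.03 without vehicle replicate 1 (to 0.15 with other samples left out), Nlgn3 was 0.003 without vehicle replicate 3 (to -0.12 with others left out), and Iqsec3 was -0.01 by limma with either pseudocount and -0.03 without CNO replicate 1. The ratio of Nlgn2 to Gphn was -0.06 to 0.11 with a sample left out, below 0 without CNO replicate 1 (-0.05) or vehicle replicate 1 (-0.06). With a sample left out, Nlgn2 to Nlgn1 was 0.20 (without vehicle replicate 1) to 0.53 (without CNO replicate 3), Nlgn2 to Nlgn3 0.17 (without CNO replicate 1) to 0.43 (without CNO replicate 3 or vehicle replicate 2), Nrxn3 to Nrxn2 -0.41 (without CNO replicate 2) to -0.21 (without CNO replicate 3 or vehicle replicate 1) and Iqsec3 to Gphn -0.16 (without CNO replicate 1) to -0.04 (without vehicle replicate 1). With CPM in place of TPM, Nlgn2 to Nlgn3 was 0.21. At an unadjusted p under 0.05, Nrxn3 passed by DESeq2, by limma with either pseudocount and with the marker index (1 of the 8 genes each), beside 835 (DESeq2), 940 and 916 (limma, 1 and 0.1 added) and 582 (marker index) of the 17495 genes tested. Nrxn3 and Nlgn1 passed with library size only (2 of the 8, beside 865 of all genes tested), and 0 to 1 with a sample left out (Nlgn1 without CNO replicate 2). The causes of these moves were not tested.

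Over all genes, 15 passed the adjusted test by likelihood ratio with robust dispersion, 11 by DESeq2, 4 without a filter, 3 with 1 surrogate variable and 0 to 2 with a sample left out (0 in the quasi-likelihood test, with 716 unadjusted). The unadjusted count was 1126 without a filter and 318 (without CNO replicate 4) to 1683 (without CNO replicate 2) with a sample left out, and 396 without vehicle replicate 1. Under the other settings the unadjusted count over all genes was 865 with library size only, 940 and 916 by limma, 582 with the marker index and 711 with the length offset. It was 842 by likelihood ratio, 835 by DESeq2, 715 with RLE size factors and 580 with 1 surrogate variable. Unadjusted list counts, to be read beside these, moved too. Neurexin partners gave 5 with library size only, 5 and 5 by limma, 4 with the marker index, 4 with the length offset and 0 to 6 with a sample left out (6 without CNO replicate 2). LAR receptors and SLITRKs gave 2 with library size only, 0 and 0 by limma and 0 to 3. Inhibitory postsynaptic genes gave calls in opposite directions under different settings. Higher with CNO were 1 by likelihood ratio, 1 by DESeq2, 1 with RLE size factors and 1 without a filter. With a sample left out, 0 to 3 were higher and 0 lower. Lower with CNO were 2 and 2 by limma, 1 with 1 surrogate variable, 1 with the marker index and 1 with the length offset. Excitatory postsynaptic genes gave 1 and 1 by limma, 1 with the length offset and 1 to 3.

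Same-numbered samples deviated together in only 2 of 4 pairs (correlation over 0.1, range -0.03 to 0.239), and 1 of 4 CNO and 1 of 4 vehicle samples correlated best with their own number, so the numbers were not taken as pairs. The replicate block gave 0 adjusted and 765 unadjusted calls over all genes, 0 among the 8 genes and 1 (higher) among inhibitory postsynaptic genes. No scaling moved the median of all genes by over 0.1.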
